A study of Homo sapiens with 6 samples.

Results

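The 10 genes described here encode the subunits of the human CCR4-NOT complex: CNOT1, CNOT2, CNOT3, CNOT6, CNOT6L, CNOT7, CNOT8, CNOT9, CNOT10 and CNOT11. They were taken as a named list, and every probe set that the platform annotation gave to 1 of these genes alone was kept, which made 34 of the 54675 probe sets on the array. All 10 genes had at least 1. RNA came from A549, a human lung adenocarcinoma line, in 3 stable lines made with lentiviral vectors, each carrying a hairpin RNA that tetracycline-type drugs switch on. The shNTC line had a non-targeting hairpin, and the shCNOT3-1 and shCNOT3-2 lines had hairpins against separate sequences of CNOT3. Each line was grown for 72 hours without doxycycline (DOX) or with DOX at 1 ug/ml, and each of these 6 states was measured on 1 array. All lines, controls included, carry a vector and a hairpin. The labels do not say whether a line is a clone or a pool, and name no repeat cultures. The p-values given below therefore rest on the spread between these arrays alone, which may be technical.

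CCR4-NOT is the main enzyme that shortens the poly(A) tails of cytoplasmic mRNAs, a step that usually comes before decapping and decay. CNOT1 is the scaffold on which the other subunits sit. CNOT2 and CNOT3 pair at its C-terminal end and form the NOT module, CNOT9 offers a docking surface for RNA-binding adaptors and the TNRC6 proteins of the microRNA pathway, and CNOT10 with CNOT11 forms a module at its N-terminal end. The tail is removed by nucleases of separate folds, the CAF1 type (CNOT7 or CNOT8) and the CCR4 type (CNOT6 or CNOT6L), and the members of each pair are paralogs that take the same place in the complex.

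A probe set is a group of short probes that together read 1 transcript or several. Names ending in _at are designed for a single transcript, and those ending in _s_at or _a_at match several, usually of the same gene. Values are MAS5 intensity on a linear scale, and changes are given on the log2(intensity + 1) scale, which understates those of dim probe sets. Of the 34 probe sets, 26 had a mean log2 value at or above the median of the whole array (5.96, an intensity of 61.4) and entered the tests with 27279 probe sets in all. The other 8 were too dim and are given as values only. The tested probe sets covered all 10 genes, with 4 each for CNOT7 and CNOT9, 3 each for CNOT1, CNOT2, CNOT6L and CNOT8, 2 each for CNOT3 and CNOT6, and 1 each for CNOT10 and CNOT11.

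The arrays carried the marks of A549. AKR1B10, ALDH1A1 and AKR1C1, enzymes abundant in this line, and the keratins KRT8 and KRT18 read between 28770 and 54270.4 on all arrays. KRT7 read 16126 to 17929, CDH1 4296 to 7004, KRT19 462 to 1361 and EPCAM, an epithelial adhesion molecule, 132 to 372. Of the 10 leukocyte, endothelial and fibroblast markers with a probe set, 4 passed the brightness filter (CD14, PECAM1, COL1A1 and DCN). PTPRC and CDH5 read at most 38.0, COL1A2 and COL3A1 at most 57.7, and CD3E and VWF at most 88.1. DCN read 30.1 to 101, CD14 144 to 265 and PECAM1 107 to 277. COL1A1 was the brightest of them, at 350 to 553, a range that overlaps that of EPCAM. The summed intensity of each of these lists was at most 727 on any array. The 3' over 5' intensity ratio of ACTB, a measure of RNA integrity, was 1.33 and 1.36 without DOX and 1.42 and 1.45 with DOX in the shCNOT3 lines, and 1.58 and 1.47 in shNTC. That of GAPDH was 0.966 to 1.09. PECAM1 and KRT19 had unadjusted p-values of 0.0194 and 0.0114 for the knockdown term described below and were not called (adjusted p = 0.277 and 0.244). The part of these markers and ratios in the results was not tested.

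CNOT3, the target of the hairpins and a subunit of the NOT module, had less signal with DOX at each of its 3 probe sets in both shCNOT3 lines, while in shNTC the 3 probe sets differed from each other. The brightest, 203239_s_at, read 178 in shNTC without and 166 with DOX, 227 and 81.9 in the shCNOT3-1 line and 228 and 46.9 in the shCNOT3-2 line. The shCNOT3 arrays with DOX were the lowest of the 6 and lay apart from the others. DOX left 36.1% of the intensity in shCNOT3-1, 20.5% in shCNOT3-2 and 93.4% in shNTC. The plot of CNOT3 intensity by line shows the 3 probe sets side by side. In bulk RNA, fewer cells with CNOT3 mRNA and less of it per cell cannot be told apart.

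**Figure D1:**
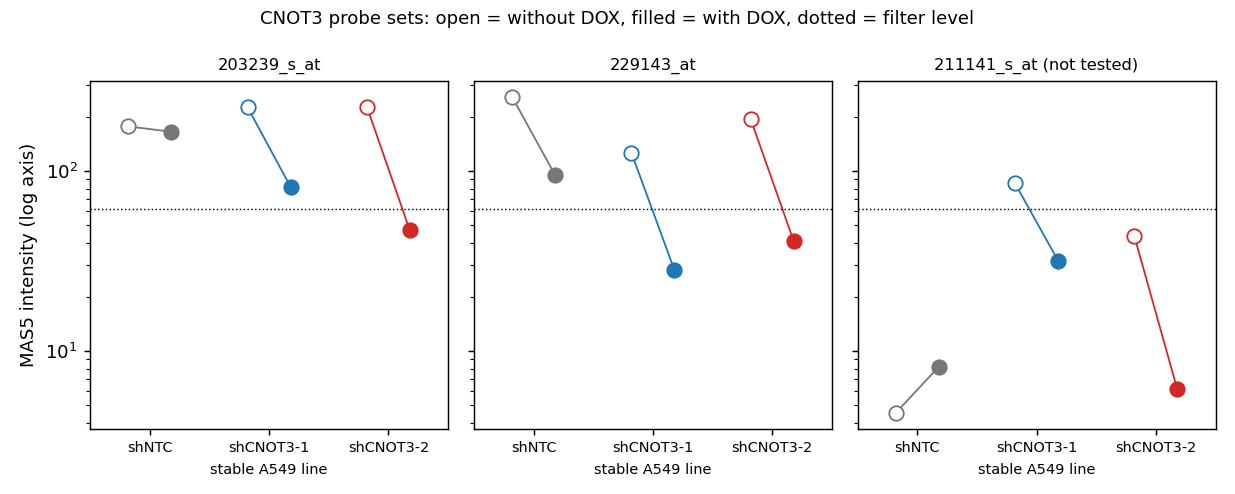
MAS5 intensity (log axis) of the 3 CNOT3 probe sets in each stable line, without DOX (open) and with DOX (filled), 1 array per point, with the brightness filter of 61.4 dotted. Intensity is lower with DOX in both shCNOT3 lines in the first and second panels. In shNTC it goes from 178 to 166 in the first and from 259 to 95.6 in the second. The probe set of the third panel (shNTC 4.54 to 8.18) failed the filter, so no order was read from it.

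The second probe set, 229143_at, which was designed on an expressed sequence tag, behaved differently in the control line. It read 259 in shNTC without and 95.6 with DOX, 127 and 28.4 in the shCNOT3-1 line and 195 and 41.1 in the shCNOT3-2 line. Again the shCNOT3 arrays with DOX were the lowest, but shNTC with DOX lay below all arrays without it. DOX left 36.9% in shNTC, against 22.3% and 21.0% in the shCNOT3 lines. The third, 211141_s_at, failed the filter, with 4.54 and 8.18 in shNTC, 85.5 and 31.9 in the shCNOT3-1 line and 43.6 and 6.12 in the shCNOT3-2 line. This probe set reads near the floor on several arrays, so no order was read from it. Without DOX the lines differed 1.28-fold at 203239_s_at and 2.04-fold at 229143_at.

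The knockdown term averages the DOX changes of both shCNOT3 lines and was tested in limma with the line as a block against a residual that holds the shNTC change and the difference between the hairpins. For 203239_s_at, hairpin changes of -1.46 and -2.26 gave -1.86 ± 0.57 (SD, n = 2 hairpins), with a 95% interval of -2.63 to -1.09 and an unadjusted p of 0.000376. Its adjusted p, over all 27279 probe sets, was 0.0888, which missed the threshold of 0.05. For 229143_at, changes of -2.13 and -2.22 gave -2.17 ± 0.07, with an interval of -3.31 to -1.04 and an adjusted p of 0.148 (unadjusted 0.00185). None of the 26 CCR4-NOT probe sets was called, and the background was low, since 36 of all tested probe sets (0.132%) passed, 15 higher and 21 lower. At an unadjusted p under 0.05, 2 of the 26 were lower, both of CNOT3, where 7.49% of all tested probe sets were.

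The change beyond shNTC, the knockdown term in a model that also holds a DOX effect shared by the lines, called neither CNOT3 probe set. It was -1.76 for 203239_s_at (interval -3.17 to -0.35, unadjusted p = 0.0199, adjusted p = 0.567 in limma) and -0.74 for 229143_at (-2.33 to 0.84, adjusted p = 0.840). No probe set of any gene was called on this term (0.0%), where 2097 had an unadjusted p under 0.05, and 1 of the 26 CCR4-NOT probe sets, 203239_s_at, was among them. This model has 1 residual degree of freedom, and its intervals were wider than those of the knockdown term for every one of the 26.

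Set among all probe sets, the CNOT3 changes lay near the low end in both shCNOT3 lines. In shCNOT3-1 the change of 203239_s_at was the 381st lowest and that of 229143_at the 83rd lowest of 27279, and in shCNOT3-2 they were the 88th and 92nd. In shNTC, 203239_s_at was 10790th, in the middle of the distribution, and 229143_at 295th. At least 2-fold lower with DOX were 4.41% of tested probe sets in shCNOT3-1, 3.91% in shCNOT3-2 and 2.73% in shNTC, and the change of 229143_at in shNTC belongs to the last of these. A fold rule asked for at least 2-fold in both shCNOT3 lines, in 1 direction, with the shNTC change under 0.5 of the smaller one. By it 0.488% of probe sets were lower and 0.495% higher, and among the CCR4-NOT probe sets only 203239_s_at met it. Without the brightness filter the dim CNOT3 211141_s_at and CNOT6L 1553267_a_at met it too, among 2189 probe sets.

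The other 9 subunits showed no such drop. Of their 24 tested probe sets none differed 2-fold with DOX in any line, where 5.28% of all tested probe sets did in shNTC, 7.64% in shCNOT3-1 and 7.75% in shCNOT3-2. Their changes ran from -0.63 to 0.52 in shCNOT3-1, from -0.26 to 0.82 in shCNOT3-2 and from -0.72 to 0.55 in shNTC. Median changes were 0.03, 0.07 and 0.17, beside 0.00, -0.01 and 0.00 over all tested probe sets. The median size of the change, whatever its sign, was 0.12 in shCNOT3-1 and 0.17 in shCNOT3-2, smaller than the 0.27 of shNTC, whereas over all tested probe sets it was 0.31, 0.31 and 0.26. The 24 were not matched for brightness to all tested probe sets, and 20 of them had a mean level of at least 200. The plot of DOX changes by line shows the 24 probe sets inside the 2-fold lines and CNOT3 outside them.

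**Figure D2:**
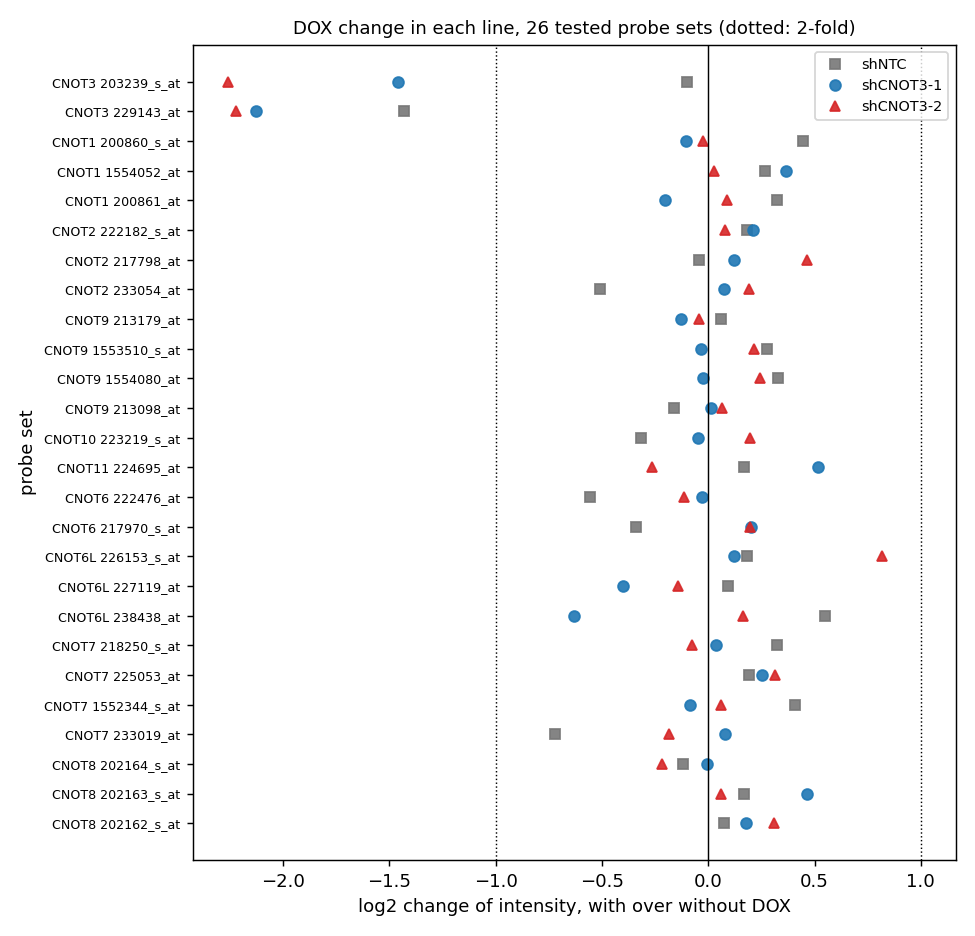
The log2 change of intensity with over without DOX in shNTC (squares), shCNOT3-1 (circles) and shCNOT3-2 (triangles) for the 26 tested CCR4-NOT probe sets, 1 pair of arrays per point. Dotted lines mark a 2-fold change, and only CNOT3 lies beyond them, 229143_at in all 3 lines and 203239_s_at in the shCNOT3 lines.

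In limma the knockdown terms of these 24 probe sets lay between -0.27 and 0.47, with 14 above 0 and 10 below, and the smallest adjusted p was 0.417 (unadjusted 0.0694). The hairpins had the same sign for 15 of the 24. Shares over all tested probe sets were not counted for these signs. A p that misses the threshold does not show that a level stayed the same, so the intervals matter here. For 21 of the 24 the 95% interval lay wholly inside a 2-fold change in either direction, and for 10 inside a 1.5-fold change. No share over all tested probe sets was counted for these intervals, and 20 of the 24 had a mean level of at least 200. The 3 whose intervals reached further were the dimmest probe sets of CNOT2 (233054_at), CNOT6L (238438_at) and CNOT7 (233019_at), with intervals that reached from -1.34 to 1.23 in all. The knockdown term does not subtract the shNTC change. For the change beyond shNTC, the interval lay wholly inside a 2-fold change for only 8 of the 24, again with no such share counted. Across all 6 arrays the highest value was a median of 1.45 times the lowest for these 24 probe sets. For all tested it was 1.72 times, again not matched for brightness. For CNOT3 this ratio was 4.87 and 9.14.

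**Figure D3:**
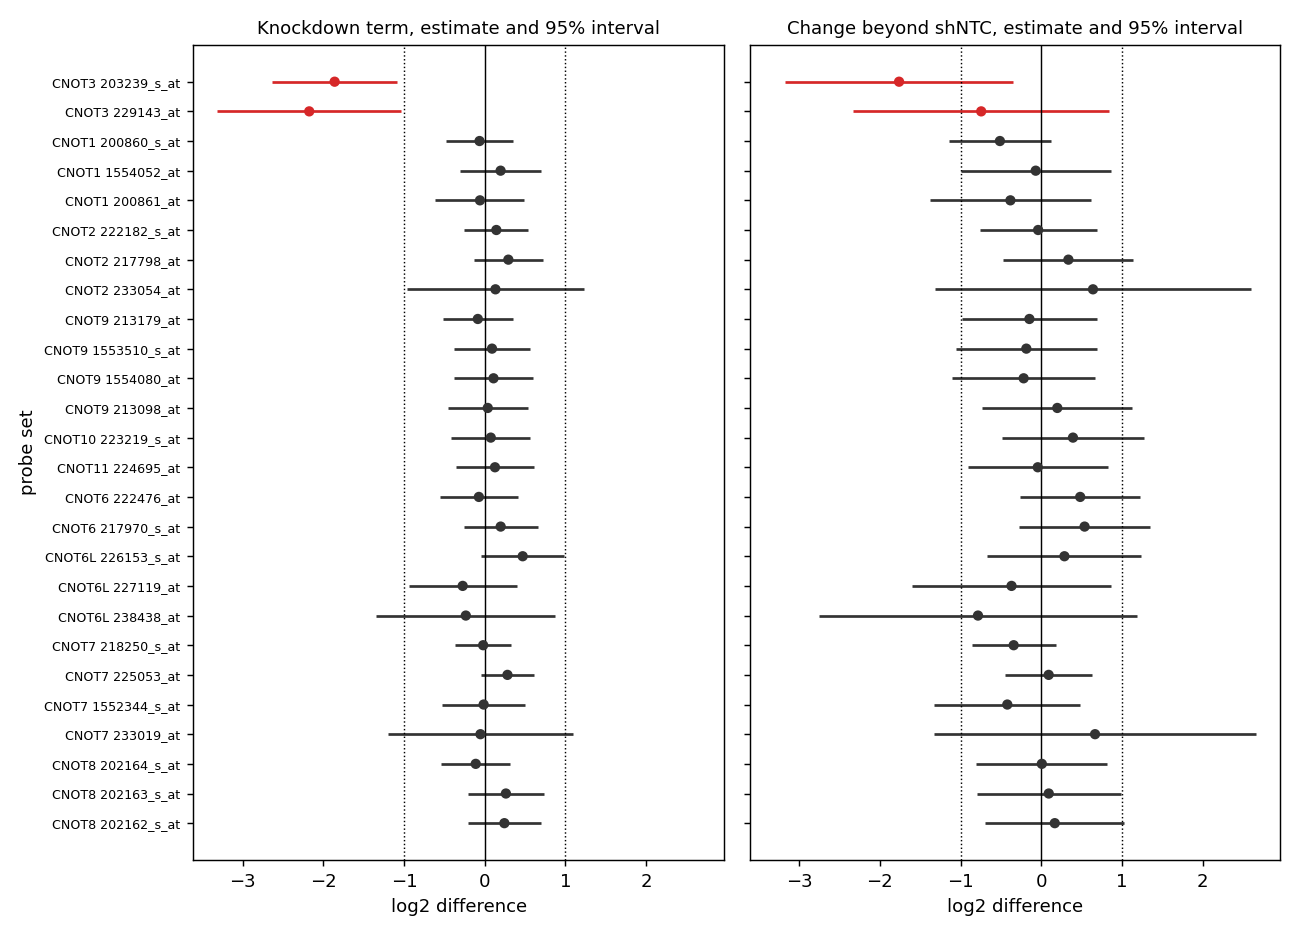
Estimates (points) and 95% intervals (lines) of the knockdown term, left, and of the change beyond shNTC, right, on the log2 scale for the 26 tested probe sets, with CNOT3 in red and 2-fold changes dotted. On the left the CNOT3 intervals end at -1.09 and -1.04 and all others include 0, and on the right only the interval of CNOT3 203239_s_at, -3.17 to -0.35, leaves out 0.

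CNOT1, the scaffold, read higher with DOX in the control line at each of its 3 tested probe sets, while the signs were mixed in the shCNOT3 lines. At 200860_s_at it read 3751 in shNTC without and 5116 with DOX, 4619 and 4297 in the shCNOT3-1 line and 4331 and 4258 in the shCNOT3-2 line. Thus shNTC held both the lowest and the highest array, and the shCNOT3 arrays lay between them. Changes of the 3 probe sets were 0.27 to 0.45 in shNTC, -0.20 to 0.36 in shCNOT3-1 and -0.02 to 0.09 in shCNOT3-2. The change of 200860_s_at beyond shNTC was -0.51 (interval -1.15 to 0.12), the smallest p of the term among the 24 (unadjusted 0.102, adjusted p = 0.723).

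CNOT2, the partner of CNOT3 in the NOT module, was somewhat higher with DOX in both shCNOT3 lines at each tested probe set, and no term passed the threshold. At its brightest, 222182_s_at, it read 2294 and 2603 in shNTC, 2096 and 2422 in the shCNOT3-1 line and 2897 and 3060.4 in the shCNOT3-2 line. Changes were 0.18 in shNTC and 0.21 and 0.08 in the shCNOT3 lines, and the change beyond shNTC was -0.04. The line made more difference at this probe set than DOX did, since both shCNOT3-2 arrays were the highest. At 217798_at it read 1695 and 1645, 1669.8 and 1815, and 1596 and 2203 in the same order. This was the only probe set of the other subunits with both shCNOT3 arrays with DOX above all 4 others, a pattern that 13.4% of all tested probe sets had. Its term was 0.29 (interval -0.13 to 0.72, adjusted p = 0.548). The third tested probe set, 233054_at, read 46.9 to 92.6, near the filter level. Its changes were -0.51 in shNTC and 0.07 and 0.19 in the shCNOT3 lines. The dim 222181_at read 5.93 to 38.8 with no order by hairpin.

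CNOT9, the adaptor-binding subunit, differed between its highest and lowest array from 1.14-fold at 213179_at to 1.43-fold at 1554080_at. At 213179_at it read 1188 and 1239.8 in shNTC, 1186 and 1085 in the shCNOT3-1 line and 1149.8 and 1117 in the shCNOT3-2 line. Highest and lowest array differed 1.14-fold, the least of the 24, and its shCNOT3 arrays with DOX were below all others, as were those of both tested CNOT3 probe sets and of 13.6% of all tested probe sets. Its term was nevertheless small, at -0.09 (interval -0.52 to 0.35), and the other tested CNOT9 probe sets gave 0.04 to 0.11. The dim probe sets 213903_s_at and 236684_at read between 3.15 and 46.7.

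CNOT10 and CNOT11, which form the N-terminal module, had 1 probe set each, and the hairpins had opposite signs at both. CNOT10 read 851 in shNTC without and 682 with DOX, 871 and 843 in the shCNOT3-1 line and 895 and 1026 in the shCNOT3-2 line. The lowest array was therefore a control array and the highest a knockdown array, with a term of 0.07 (interval -0.41 to 0.56). CNOT11 read 2593 and 2918, 2427 and 3475, and 2667 and 2221 in the same order. Both its extremes were shCNOT3 arrays with DOX, which gave changes of 0.52 and -0.26 and a term of 0.13 (-0.36 to 0.61).

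Of the CAF1-type nucleases, CNOT7 was bright in all 6 arrays. At 218250_s_at it read 7755 and 9696 in shNTC, 10912 and 11207 in the shCNOT3-1 line and 9336 and 8848 in the shCNOT3-2 line, so that both shCNOT3-1 arrays were the highest and the DOX difference was widest in shNTC. A second bright probe set, 225053_at, was higher with DOX in all 3 lines, with 8074 and 9209.7, 7660.4 and 9118, and 6486 and 8053. Changes there were 0.19, 0.25 and 0.31, the term was 0.28 (interval -0.04 to 0.61, adjusted p = 0.446), and the change beyond shNTC was 0.09. Intervals of these bright probe sets were narrow, that of 218250_s_at being -0.37 to 0.33. Dim CNOT7 probe sets (1558372_at and 1558373_s_at) read 1.40 to 20.9.

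CNOT8, the paralog of CNOT7, showed no shift common to its 3 probe sets. At 202164_s_at it read 1653 and 1522 in shNTC, 1339 and 1335 in the shCNOT3-1 line and 1676 and 1439.7 in the shCNOT3-2 line. The shCNOT3-1 arrays were the lowest with and without DOX. At 202163_s_at it read 896 and 1008, 918 and 1268, and 917 and 955, with shCNOT3-1 with DOX the highest. Terms of the 3 probe sets were -0.11, 0.24 and 0.26, with intervals from -0.54 to 0.74 over all 3.

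Among the CCR4-type nucleases, CNOT6 had its lower values in the control line with DOX and differed little with DOX in the shCNOT3 lines. At 222476_at it read 2503 in shNTC without and 1704 with DOX, 2342 and 2291 in the shCNOT3-1 line and 2367 and 2188 in the shCNOT3-2 line. The shNTC array with DOX was the lowest, and it was also the lowest at 217970_s_at, where the values were 1441 and 1139, 1385 and 1590.0, and 1236 and 1416. Changes in shNTC were -0.55 and -0.34. Changes beyond shNTC were 0.48 and 0.54, with adjusted p = 0.777 and 0.773 in limma.

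CNOT6L, the paralog of CNOT6, had the highest knockdown term of the 24, but its probe sets disagreed in sign. At 226153_s_at it read 1111 and 1261 in shNTC, 933 and 1016 in the shCNOT3-1 line and 755 and 1331 in the shCNOT3-2 line. Most of the term of 0.47 (interval -0.05 to 0.99, adjusted p = 0.417) came from shCNOT3-2, with a change of 0.82 against 0.12 in shCNOT3-1. In shCNOT3-2 the array without DOX was the lowest of the 6 and the array with DOX the highest, and without that line the term was 0.12. At 227119_at the values were 126 and 135, 187 and 142, and 192 and 174, which gave a term of -0.27. The third tested probe set, 238438_at, gave -0.23, and the dim 1553266_at and 1553267_a_at read 1.00 to 56.5.

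**Figure D4:**
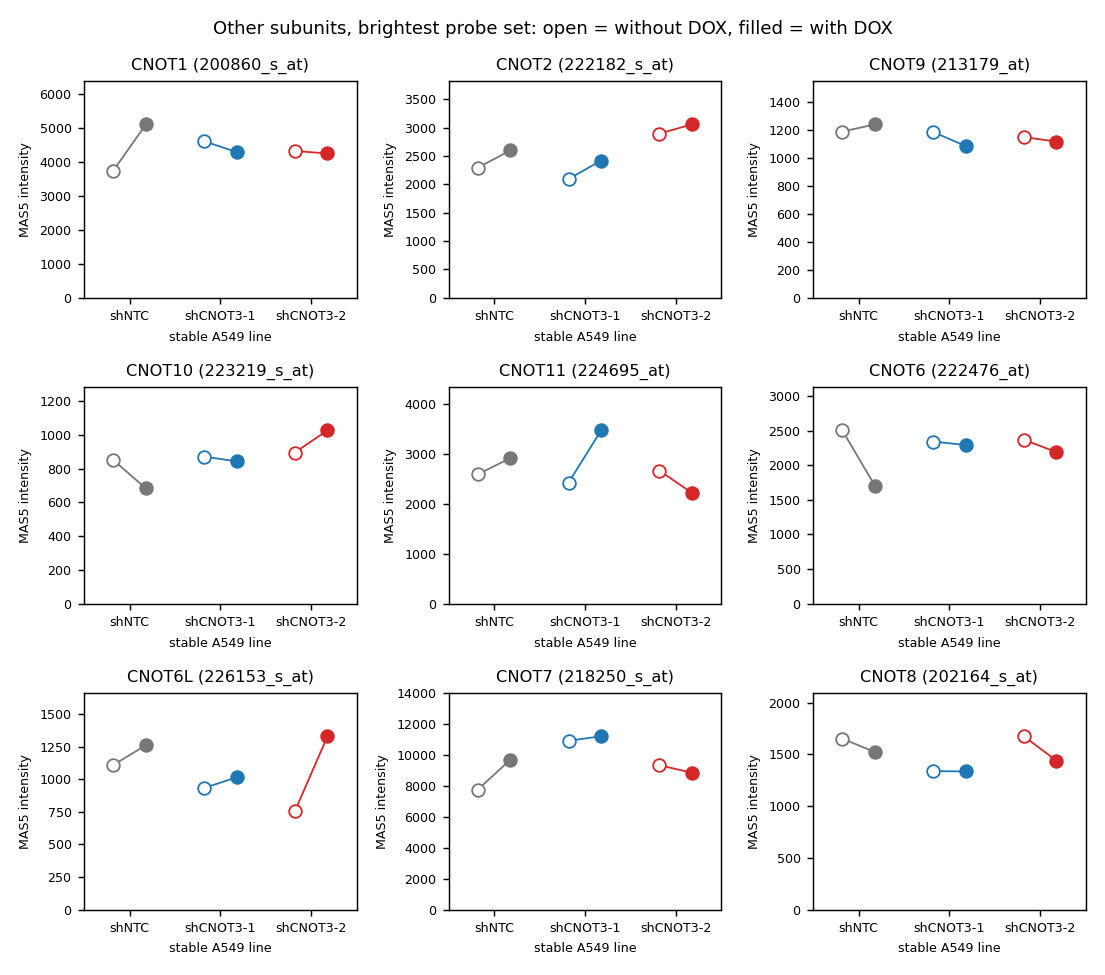
MAS5 intensity (linear axis from 0, scaled for each gene) of the brightest probe set of the 9 other subunits in each stable line, without DOX (open) and with DOX (filled), 1 array per point. CNOT6L in shCNOT3-2 goes from 755 to 1331, CNOT6 in shNTC from 2503 to 1704, and CNOT11 has its highest (3475) and lowest (2221) array in the shCNOT3 lines with DOX.

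Probe sets of 1 gene often had changes of different sign. Among the 8 genes with several tested probe sets, all of a gene's probe sets had the same sign for 4 genes in shNTC and for 2 in each shCNOT3 line. The matching share over all genes was not counted, so these counts have no background. CNOT3 was the only gene for which this held in every line, and CNOT2 the only other for which it held in both shCNOT3 lines. The 7 dim probe sets of the other subunits differed 2-fold or more with DOX 3 times in shNTC, 4 times in shCNOT3-1 and 3 times in shCNOT3-2, with values from -3.01 to 2.52. Their lowest values lay at or near the floor of 1, so no order was read from them.

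The plot of one hairpin against the other places the members among all tested probe sets. CNOT3 lies in the lower left, away from most of them, and the other subunits lie near the centre.

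**Figure D5:**
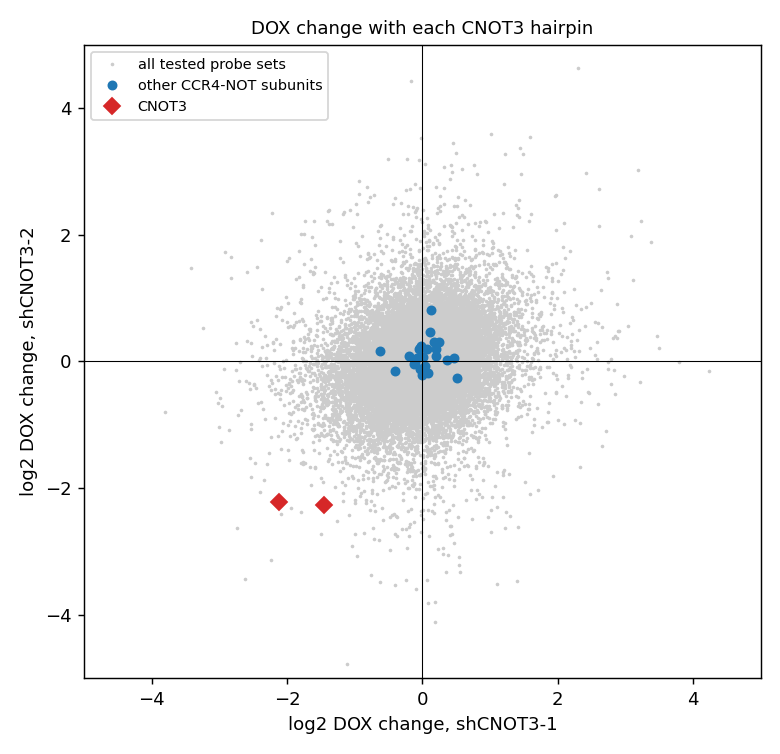
The log2 DOX change in shCNOT3-1 (x axis) against that in shCNOT3-2 (y axis) for the 27279 tested probe sets (grey), the 24 of the other CCR4-NOT subunits (blue) and the 2 of CNOT3 (red), each from 1 pair of arrays per line. The CNOT3 points lie at -1.46 and -2.26 and at -2.13 and -2.22, and the blue points within -0.63 to 0.82 on both axes.

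Genes with a pattern like that of CNOT3 were ranked by Pearson's r of log2 intensity with 203239_s_at over the 6 arrays, as a description, since 183 of 23190 probe sets of other genes reached 0.95. The highest were RRM2, a subunit of ribonucleotide reductase (r = 0.999), PHF10, a subunit of a chromatin remodelling complex, and the adhesion molecule ALCAM (both 0.995), the chromatin protein HMGB3 (0.993) and ZNF791 (0.993). RRM2 read 9476 and 9428 in shNTC, 11933 and 5657 in the shCNOT3-1 line and 11978 and 3843 in the shCNOT3-2 line. As follows from its choice by r with 203239_s_at, it differed little in the control line and was lowest in shCNOT3-2 with DOX. Its changes, -1.08 and -1.64 in the shCNOT3 lines, were smaller than those of CNOT3, and for ALCAM they were only -0.22 and -0.36. Among the members, r with 203239_s_at was 0.830 for the second CNOT3 probe set, -0.945 for CNOT2 217798_at and between -0.63 and 0.66 for the rest.

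The surrounding machinery was read from the brightest probe set of each gene of 3 lists, and no gene in them was called on either term. For the knockdown term, none of these brightest probe sets had an unadjusted p below 0.05 in limma. Of 9 partners of the complex, all tested, the highest term was that of EIF4ENIF1, a translational repressor that binds the cap-binding protein, at 0.42 (changes of 0.51 and 0.34, adjusted p = 0.407). The lowest was that of TNKS1BP1, a protein that copurifies with the complex, at -0.54, where the hairpins gave -1.21 and 0.13. CNOT4, a ubiquitin ligase that is not a stable subunit of the human complex, gave changes of 0.24, 0.27 and 0.26 in shNTC, shCNOT3-1 and shCNOT3-2.

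DDX6, the helicase that docks on CNOT1, was added after its values were seen. Its brightest probe set, 225549_at, read 3620.2 and 3675 in shNTC, 2966 and 2715 in the shCNOT3-1 line and 3212 and 2188 in the shCNOT3-2 line. The term was -0.34 (adjusted p = 0.458), and its other tested probe sets gave -0.56 and -0.88, all 3 being lower in both shCNOT3 lines and not in shNTC. The larger changes came from the dimmer probe sets, 204909_at (55.2 to 157 over the arrays) and 1562836_at (136 to 328). For 1562836_at the unadjusted p was 0.0128 and the adjusted p = 0.251 in limma. Of all 27279 tested probe sets, 3688 had an unadjusted p under 0.05 for this term. TNRC6A, a scaffold of microRNA silencing, likewise looked at after its values were seen, had a probe set other than its brightest with an unadjusted p under 0.05. This was 224704_at, which was higher with DOX in all 3 lines (0.15 in shNTC, 0.60 and 0.32 in the shCNOT3 lines), with a mean of 0.46 over the hairpins and an unadjusted p of 0.0484 (adjusted p = 0.365).

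Of 9 other deadenylases and related proteins 8 were tested, with a median term of 0.11. TOE1, a nuclear deadenylase, had the lowest term at -0.48 (adjusted p = 0.410) and was lower by a like amount in the control line, with 642 and 497 in shNTC, 561 and 402 in the shCNOT3-1 line and 587 and 422 in the shCNOT3-2 line. NOCT, a CCR4-type protein under circadian control, had the highest at 0.42, from changes of -0.25 and 1.09. Its other tested probe set, 220671_at, gave a mean of 0.06, from -0.50 and 0.63, and 0.73 in shNTC. Of 9 poly(A)-binding proteins and their partners 7 were tested, with a median term of 0.07, from -0.42 for PAIP2B to 0.50 for PABPC1L (0.16 and 0.84 by hairpin, adjusted p = 0.471). PABPC1, the main cytoplasmic poly(A)-binding protein, read 25471 to 31832 on all arrays, from a probe set of a kind that can bind similar genes. PABPC3, a related gene read by a probe set of the same kind, gave 0.52 in shNTC and -0.04 and -0.06 in the shCNOT3 lines, a change of -0.57 beyond shNTC (unadjusted p = 0.00776, adjusted p = 0.464). The PABPC3 probe set read 21748 to 31191 over the arrays, and which of the related genes gave that signal was not tested. PABPC4 had no probe set of its own.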

How the data were processed

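RNA of 3 stable A549 lines, each with and without DOX, was measured on 6 arrays. Per the submitters' processing notes, MAS5 made the deposited intensity values. Its settings are not stated there. They are linear, with a trimmed mean of 499.9 on every array and a floor of 1, so they are relative to each array's total. Precision is limited by the number of arrays. Probe sets were named by the platform annotation, with symbols updated through Entrez identifiers. Coordinates are left out, since the sources name no genome build, and the hairpin and probe sequences were not used here.

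Intensities were taken to log2 after adding 1. Controls and probe sets with a mean log2 under 5.96 were left out, which kept 27279. Tests used limma 3.58.1 in R 4.3.3 on every probe set apart, 2-sided, with an intensity trend in the prior variance. Adjusted p-values are by Benjamini-Hochberg, with calls made under 0.05. The line was a block, because the labels give each line with and without DOX, and the knockdown term was set in the shCNOT3 arrays with DOX (2 residual degrees of freedom). A second model added a DOX term (1 residual degree of freedom). Standard deviations are over the 2 hairpins. The fits were first tested on simulated data. Members, lists and the naming rule (highest and lowest mean change of each list, any called, and the 5 genes most like CNOT3) were chosen with earlier results of these data known. Figures were drawn with matplotlib 3.10.9 in Python 3.11.15.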

Additional observations from a re-analysis of the deposited data

How the results depend on the processing

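No CCR4-NOT probe set was called under any alternative for either term. For CNOT3 203239_s_at the knockdown term lay between -2.26 and -1.46 over all alternatives. These ends are the changes of the single hairpins, from the fits without 1 shCNOT3 line. The filter, the choice of probe set, the trend, the block and leaving out shNTC cannot alter the estimate. With 16 in place of 1 added before log2 the estimate for 203239_s_at was -1.63. Its adjusted p ran from 0.0677 (1 probe set per gene) to 0.370 (no intensity trend). For 229143_at the term lay between -2.22 and -1.79, with adjusted p from 0.112 to 0.370. The line is a paired block in the main model. With no replicate block the adjusted p of 203239_s_at was 0.219 and the count of called probe sets went from 36 to 0. That count was also 0 with no filter on dim probe sets and with no intensity trend, 21 after quantile normalization, and 14 to 45 with 1 line left out, 14 without shCNOT3-1. Beyond shNTC, 2 probe sets were called after quantile normalization in place of 0. The fold rule took in 2189 probe sets with no filter in place of 268, and with them CNOT3 211141_s_at and CNOT6L 1553267_a_at. The cause of these differences was not tested.

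Some uncalled terms changed sign. After quantile normalization those of CNOT7 1552344_s_at and 218250_s_at were 0.0027 and 0.0038, and the change of CNOT8 202164_s_at beyond shNTC was -0.0013. With 1 line left out in turn the knockdown terms ranged from -0.20 to 0.087 for CNOT1 200861_at, -0.048 to 0.20 for CNOT10, -0.26 to 0.52 for CNOT11, -0.63 to 0.16 for CNOT6L 238438_at, -0.086 to 0.059 for CNOT7 1552344_s_at, -0.077 to 0.039 for 218250_s_at, -0.18 to 0.080 for 233019_at, -0.035 to 0.22 for CNOT9 1553510_s_at and -0.024 to 0.24 for 1554080_at. The change beyond shNTC could not be fitted with a line left out, since no residual degree of freedom remains. Signal over background limits the 8 dim probe sets, whose changes cannot be ordered.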
